A study of Mus musculus with 4 samples.

Results

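Liver libraries of any sorted cell can hold RNA of hepatocytes, the cells that make up most of the liver. This account covers 37 hepatocyte transcripts, chosen by name, of the 18804 genes in an RNA-seq table of mouse liver ILC1s (type 1 innate lymphoid cells). ILC1s are tissue-resident lymphocytes related to natural killer (NK) cells. The 4 libraries came from mice aged 5 to 8 weeks at homeostasis, 2 labelled Cd200r knockout (replicates 1 and 2) and 2 labelled WT (replicates 1 and 3). CD200R is an inhibitory receptor, and the series title ties it to the cytotoxicity of ILC1s. The strain, the exons lacking in the knockout, the sort gates and whether a library is 1 mouse or a pool were not stated in the labels, so the spread between libraries may be technical in part. Cd200r1, the gene of the receptor, was at 111 and 104 FPKM in knockout against 162 and 173 FPKM in WT (log2 fold change -0.64, limma adjusted p = 0.00451), so its transcript was lower but not absent; the table has 1 value per gene and does not show which exons the reads covered. All 37 were found in the deposited table, which gives FPKM, a level scaled by gene length and by the total of the library.

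Hepatocytes secrete most proteins of blood plasma: albumin, apolipoproteins, clotting factors, protease inhibitors and carriers of iron, haem, vitamins and hormones. In the acute phase response, interleukin-6 and related cytokines raise the synthesis of some of them (positive acute phase proteins, such as fibrinogen and haptoglobin) and lower that of others (negative acute phase proteins, such as albumin and transthyretin). Liver-enriched transcription factors of the HNF1, HNF4 and C/EBP families act at their promoters. Here 9 members were classed as positive (Hp, Hpx, Fga, Fgb, Fgg, Hamp, C4bp, Itih3 and Itih4), 7 as negative (Alb, Apoa1, Apoa2, Ttr, Trf, Rbp4 and Ahsg) and 21 as neither.

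RefSeq promoter windows on GRCm38.p6 were available for 28 of the 37 members. The 200 bases before the start are shown, 5′ to 3′ on the strand of the gene, for the 3 fibrinogen chains and Hamp, all higher in knockout, for Itih4, and for Alb as a negative acute phase gene. Capitals mark matches on either strand to GTTAAT (part of the HNF1 site), TTCNNNGAA (the core of STAT sites) and CTGGGAA (a motif of interleukin-6-responsive genes).
Fga, chr3:83025953-83026152, plus strand: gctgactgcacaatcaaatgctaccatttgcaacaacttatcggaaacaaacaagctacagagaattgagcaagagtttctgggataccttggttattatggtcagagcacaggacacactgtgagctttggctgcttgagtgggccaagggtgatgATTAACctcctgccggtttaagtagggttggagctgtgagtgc
Fgb, chr3:83049864-83050063, minus strand: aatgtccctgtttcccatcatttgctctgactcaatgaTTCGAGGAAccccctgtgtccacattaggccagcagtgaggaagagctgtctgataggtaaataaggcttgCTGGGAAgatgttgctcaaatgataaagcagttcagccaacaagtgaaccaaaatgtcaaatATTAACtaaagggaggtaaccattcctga
Fgg, chr3:83007524-83007723, plus strand: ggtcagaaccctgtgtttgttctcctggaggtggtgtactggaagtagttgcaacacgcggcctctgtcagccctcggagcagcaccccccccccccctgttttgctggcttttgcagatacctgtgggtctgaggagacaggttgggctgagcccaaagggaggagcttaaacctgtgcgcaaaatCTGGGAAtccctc
Hamp, chr7:30944030-30944229, minus strand: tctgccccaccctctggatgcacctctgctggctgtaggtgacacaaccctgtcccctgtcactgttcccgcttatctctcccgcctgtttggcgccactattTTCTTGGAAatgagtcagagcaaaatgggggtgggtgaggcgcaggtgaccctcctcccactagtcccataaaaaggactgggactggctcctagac
Itih4, chr14:30886276-30886475, plus strand: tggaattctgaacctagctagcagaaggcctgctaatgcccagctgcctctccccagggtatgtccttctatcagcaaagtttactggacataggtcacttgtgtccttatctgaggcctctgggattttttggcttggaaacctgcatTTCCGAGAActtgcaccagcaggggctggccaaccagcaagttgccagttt
Alb, chr5:90460670-90460869, plus strand: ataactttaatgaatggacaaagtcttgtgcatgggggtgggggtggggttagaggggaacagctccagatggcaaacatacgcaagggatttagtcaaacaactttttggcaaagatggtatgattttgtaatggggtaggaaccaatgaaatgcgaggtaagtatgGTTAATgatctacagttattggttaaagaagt
Over the 250 bases before the start, GTTAAT was found for 10 of the 28 members and in 6.43% of all 32851 windows. TTCNNNGAA was found for 4 of 8 positive acute phase members (Fga, Fgb, Hamp and Itih4), 0 of 5 negative and 0 of 15 other members, and in 7.02% of all windows; in Fga it lies upstream of the bases shown. CTGGGAA was found for 2 of 8, 0 of 5 and 1 of 15 members, and in 9.1% of all windows. The TTCNNNGAA and CTGGGAA motifs can overlap, and do not in the windows shown. A match describes letters, not a site in use.

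Hepatocyte transcripts were a small part of each library. The 37 members summed to 1143 and 1299 FPKM in knockout replicates 1 and 2 and to 742 and 974 FPKM in WT replicates 1 and 3. These sums are 0.223%, 0.248%, 0.145% and 0.189% of the FPKM of each library. Both knockout sums lay above both WT sums, with 1221 ± 110 FPKM in knockout and 858 ± 164 in WT (mean ± SD, n = 2 each), a ratio of 1.42. The ratio was 1.25 without WT replicate 1 and 1.64 without WT replicate 3. WT replicate 1 had the lowest value of the 4 libraries for 31 of 37 members, and knockout replicate 2 the highest for 23. In bulk libraries, fewer hepatocytes or debris and less RNA from each cannot be told apart.

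**Figure D1:**
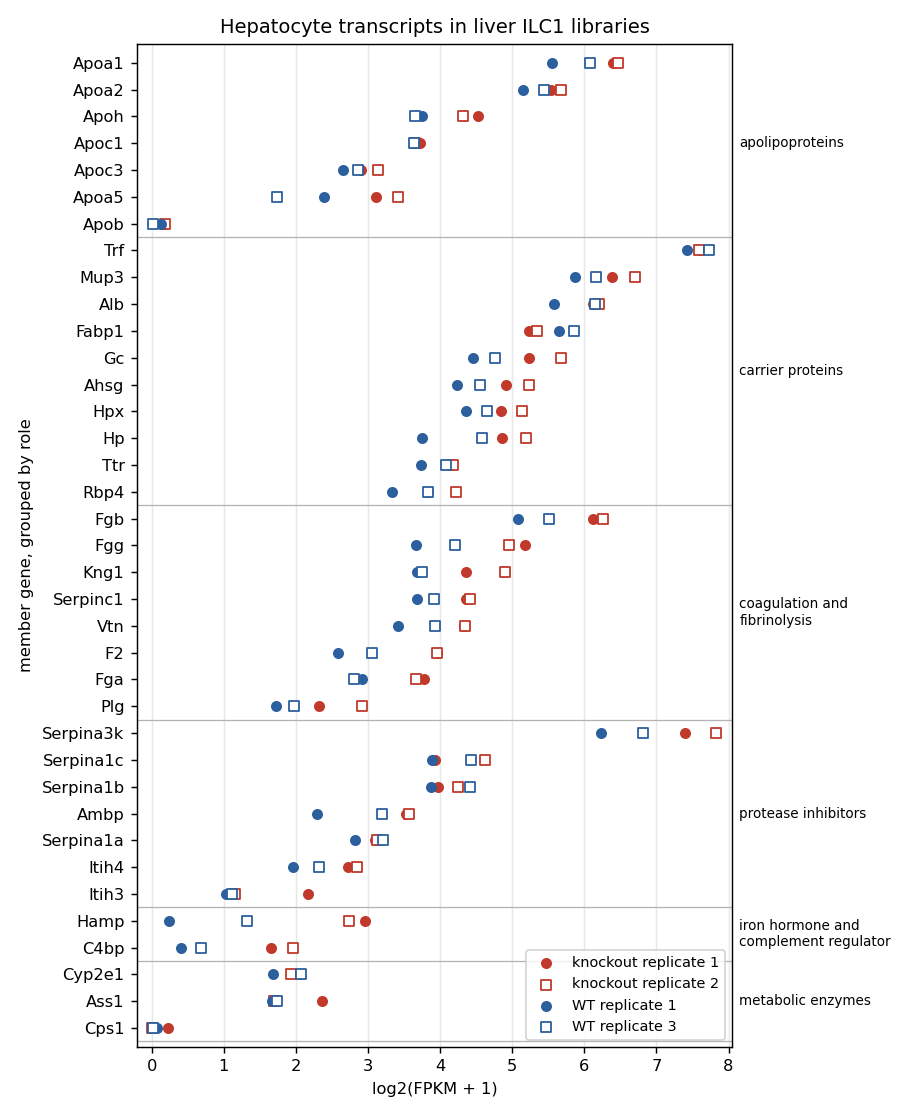
FPKM of the 37 members in each library on a log2(FPKM + 1) axis, grouped by role; red symbols are knockout and blue symbols WT libraries, with 1 symbol per library. For most members the red symbols lie to the right of the blue ones, Fabp1 shows the opposite order, and WT replicate 1 (filled blue) is the lowest library for 31 members.

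The comparison of genotypes was fitted across all genes. Of 9476 genes tested with limma, 3.33% passed an adjusted p of 0.05 in either direction, 2.4% higher and 0.939% lower in knockout, and the median log2 fold change was 0.00. Of the members, 35 had the required mean of 1 FPKM, and of these 12 rose, 0 fell and 23 did not pass. Apob and Cps1 were below that mean. Hamp and C4bp reached it only through the knockout libraries; without these 2 genes, 10 of 33 rose. The median log2 fold change of the 35 tested members was 0.63, with 33 above 0 and 2 (Fabp1 and Serpina1b) below. Both knockout libraries lay above both WT libraries for 27 of the 35, and for 24.3% of all genes tested. Of the 12 rises, 5 (F2, Fgb, Fgg, Hamp and Serpina3k) passed with each of the 4 libraries left out in turn. With no filter, or with no mean-variance trend, limma called 0 members. In these 2 fits the unadjusted limma p was under 0.05 for 19 of 37 and 22 of 35 members. Over all genes it was under 0.05 for 1898 of 18155 and 1304 of 9476.

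**Figure D2:**
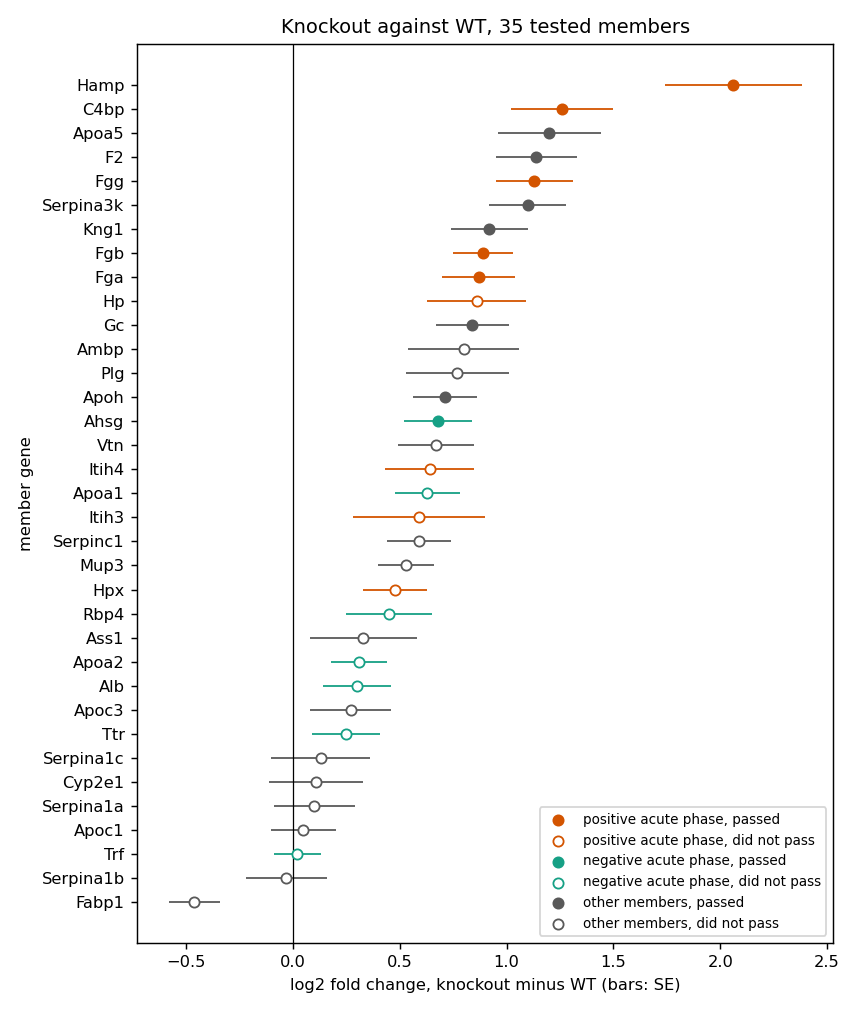
Log2 fold change (knockout minus WT) of the 35 tested members with its standard error, by acute phase class; filled symbols passed the adjusted p threshold. Hamp is highest at 2.06 on this scale, with a pseudocount of 1, and Fabp1 is lowest at -0.46.

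The liver makes the soluble clotting factors and inhibitors of plasma, and 8 members belong to clotting and fibrin breakdown. Of these 5 rose, 0 fell and 3 did not pass, where 2.4% of all genes tested were called higher. For all 8 both knockout libraries lay above both WT libraries, as for 24.3% of all genes tested. Of the other clotting genes tested, F10 (0.74), F12 (0.40), Proc (0.45), Pros1 (0.07) and Serpind1 (0.76) did not pass. Fibrinogen, the precursor of fibrin, is built from 3 chains encoded side by side on chromosome 3 (Fgg 83007724 to 83015056, Fga 83026153 to 83033627, Fgb 83042246 to 83049863).
Fgb, the beta chain, measured 68.3 and 75.7 FPKM in knockout and 33 and 44.7 in WT, a log2 fold change of 0.89 (SE 0.14, limma adjusted p = 0.00703). Fgg, the gamma chain, measured 35.2 and 30.1 against 11.7 and 17.5 FPKM (1.13, SE 0.18, limma adjusted p = 0.00703). Fga, the alpha chain, measured 12.7 and 11.7 against 6.52 and 5.97 FPKM (0.87, SE 0.17, limma adjusted p = 0.0197). The 3 chains were thus higher by similar ratios of group means, 1.85, 2.23 and 1.95, and none overlapped between genotypes. Fga did not pass without WT replicate 3 (0.81, limma adjusted p = 0.0931).

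F2, which encodes prothrombin, measured 14.6 and 14.5 FPKM in knockout and 5.01 and 7.28 in WT (1.14, SE 0.19, limma adjusted p = 0.0092). Kng1, which encodes the kininogens of the contact pathway, measured 19.5 and 28.8 against 11.8 and 12.4 FPKM (0.92, SE 0.18, limma adjusted p = 0.0202). The libraries of each genotype stood apart for both genes, but Kng1 did not pass without knockout replicate 2, its highest library (0.65, limma adjusted p = 0.0839). Serpinc1 (antithrombin, the main inhibitor of thrombin), Plg (plasminogen, the precursor of the fibrin-degrading enzyme plasmin) and Vtn (vitronectin, an adhesive plasma protein) had log2 fold changes of 0.59, 0.77 and 0.67 and did not pass.

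Hamp and C4bp both rose, from low levels. Hamp encodes hepcidin, the liver hormone that blocks iron export through ferroportin, and is induced by iron and by interleukin-6. It measured 6.8 and 5.66 FPKM in knockout and 0.187 and 1.51 in WT, which stand for about 115, 92, 3 and 24 reads. The fitted log2 fold change was 2.06 (SE 0.32, limma adjusted p = 0.00598). It depended on the pseudocount, at 3.21 with 0.1 and 0.95 with 5. Both WT libraries were low and differed from each other more than the knockout libraries did. Its paralog Hamp2, named for its similar sequence, measured 0.834 and 0 FPKM in knockout and 0.64 and 1.47 in WT, so the order was not the same, and reads may be split between the pair. C4bp encodes the C4b-binding protein, an inhibitor of complement. It measured 2.14 and 2.9 FPKM in knockout and 0.327 and 0.607 in WT (1.26, SE 0.24, limma adjusted p = 0.0167), and the fold change was 2.24 with a pseudocount of 0.1 and 0.46 with 5. Its call was lost when either knockout replicate 2 (1.10) or WT replicate 1 (1.12) was left out.

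Of the 7 protease inhibitors, 1 rose, 0 fell and 6 did not pass, where 2.4% of all genes tested were called higher. Serpina3k, an inhibitor of the antichymotrypsin type, measured 168 and 226 FPKM in knockout and 74 and 111 in WT (1.10, SE 0.18, limma adjusted p = 0.00775). Related serpins are abundant in the same libraries: Serpina3g measured 1240 and 1162 against 926 and 1028 FPKM and Serpina3f 175 and 158 against 107 and 121 FPKM, so the value of Serpina3k is uncertain where reads are shared. Serpina3f rose (0.55, limma adjusted p = 0.0146) and Serpina3g did not pass (0.30, limma adjusted p = 0.0954).
The alpha-1-antitrypsin copies Serpina1a, Serpina1b and Serpina1c, nearly alike in sequence, overlapped between genotypes, with log2 fold changes of 0.10, -0.03 and 0.13 (SE 0.19, 0.19 and 0.23). A further copy that is no member, Serpina1d, measured 50.6 and 61.4 FPKM against 23.3 and 41.7 and did not pass (0.82, limma adjusted p = 0.0791). Serpina1b measured 14.7 and 18.1 FPKM in knockout and 13.6 and 20.4 in WT. Ambp, the precursor of alpha-1-microglobulin and bikunin, had 0.80 (SE 0.26), and Itih3 and Itih4, heavy chains that bikunin joins in the inter-alpha-trypsin inhibitors, had 0.59 and 0.64. None of these 3 passed. Itih3 was high in knockout replicate 1 only, at 3.48 FPKM against 1.23 in knockout replicate 2 and 1.05 and 1.16 in WT.

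Apolipoproteins, the protein part of plasma lipoproteins, gave 2 rises among 6 tested members, where 2.4% of all genes tested were called higher. Apoa5, a regulator of plasma triglycerides, measured 7.66 and 9.64 FPKM in knockout and 4.22 and 2.35 in WT (1.20, SE 0.24, limma adjusted p = 0.0228). Apoh, which encodes beta-2-glycoprotein I, measured 22 and 19 against 12.5 and 11.6 FPKM (0.71, SE 0.15, limma adjusted p = 0.0258). The libraries did not overlap for either gene, and Apoa5 passed in 2 and Apoh in 1 of the 4 fits with a library left out. Without knockout replicate 2 or WT replicate 3, Apoa5 had 1.05 and 0.88; Apoh had 0.61 with knockout replicate 1 left out, 0.76 with WT replicate 1 left out and 0.67 with WT replicate 3 left out.
Apoa1, the main protein of high-density lipoprotein, measured 83.5 and 87.7 against 45.7 and 66.4 FPKM and did not pass (0.63, SE 0.15, limma adjusted p = 0.0545). Apoa2 (0.31), Apoc1 (0.05) and Apoc3 (0.27) also did not pass. Apob, the long structural protein of very-low-density lipoprotein, was at 0.131 and 0.138 FPKM in knockout and 0.091 and 0.0165 in WT, about 75, 76, 50 and 9 reads, and was not tested.

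Carrier proteins included the member with the highest mean and the single member that was lower in both knockout libraries. Of 10 carrier members tested, 2 rose, 0 fell and 8 did not pass, where 2.4% of all genes tested were called higher. Trf, which encodes the iron carrier transferrin, measured 193 and 192 FPKM in knockout and 170 and 211 in WT (0.02, SE 0.11), and its sign turned without WT replicate 1 (-0.13) and under quantile normalization (-0.04). Alb, the most abundant protein of plasma, measured 68.5 and 72.8 against 46.9 and 70.1 FPKM (0.30, SE 0.16, limma adjusted p = 0.424). For both genes the genotypes overlapped.
Gc, the vitamin D-binding protein, measured 36.6 and 50.3 against 21 and 26.2 FPKM (0.84, SE 0.17, limma adjusted p = 0.0199). Ahsg, fetuin-A, an inhibitor of mineral deposition, measured 29.2 and 36.6 against 17.8 and 22.4 FPKM (0.68, SE 0.16, limma adjusted p = 0.0415). These 2 rose, and each lost its call without knockout replicate 2 (0.62 and 0.53) or WT replicate 1 (0.69 and 0.53). Ahsg also did not pass with TPM (limma adjusted p = 0.0565) or quantile normalization (0.0813).
Fabp1, the liver fatty acid-binding protein that works inside the cell, measured 36.6 and 39.6 FPKM in knockout and 49.3 and 56.7 in WT. It was 1.39-fold lower by group means, but did not pass (-0.46, SE 0.12, limma adjusted p = 0.0642). Hp and Hpx, which bind free haemoglobin and haem, had 0.86 (limma adjusted p = 0.0848) and 0.48 (0.136) and did not pass. Hp measured 28.1 and 35.4 against 12.4 and 23 FPKM. Mup3, a major urinary protein of a large gene family, had 0.53 (limma adjusted p = 0.0639), and the carriers of thyroxine and retinol, Ttr and Rbp4, had 0.25 and 0.45.

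The 3 metabolic enzymes were low, and neither of the 2 tested passed. Ass1, of the urea cycle, measured 4.14 and 2.25 FPKM in knockout and 2.18 and 2.33 in WT, and Cyp2e1, a cytochrome P450, 3.14 and 2.8 against 2.22 and 3.22. Their log2 fold changes of 0.33 (SE 0.25) and 0.11 (SE 0.22) did not pass. Cps1, the first enzyme of the urea cycle, was at 0.168 and 0 FPKM in knockout and 0.0495 and 0.0136 in WT, about 38, 0, 11 and 3 reads. The 2 lowest members, Cps1 and Apob, also have the 2 longest mRNAs, of 5555 and 13934 bases in GENCODE. Across the 37 members, mean log2(FPKM + 1) and log2 mRNA length had a Pearson r of -0.35 and a Spearman rho of -0.27, a description over genes of the same 4 libraries.

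Acute phase genes were then set against the rest. Summed FPKM of the 9 positive members was 190 and 203 in knockout and 87.6 and 123 in WT, a ratio of group means of 1.87. For the 7 negative members the sums were 449 and 474 against 337 and 441 FPKM, a ratio of 1.19, and for the 21 others 504 and 622 against 318 and 410 FPKM, a ratio of 1.55. In all 3 classes both knockout sums were above both WT sums, and the negative class had the smallest gap, with WT replicate 3 close to knockout replicate 1. Single genes weighed on these sums: without Trf the negative class had a ratio of 1.36 (256 and 282 against 166 and 231 FPKM), and without Serpina3k the others had 1.35 (336 and 396 against 244 and 299 FPKM), so these 2 classes then had like ratios. Positive members held 16.6% and 15.6% of the member sum in knockout and 11.8% and 12.6% in WT. Negative members held 39.3% and 36.5% in knockout and 45.4% and 45.3% in WT. Trf alone held 16.8% and 14.8% in knockout and 22.9% and 21.6% in WT; with Trf taken out of both class and sum, negative members held 27% and 25.5% against 29.1% and 30.2%. By gene, 5 of 9 positive, 1 of 7 negative and 6 of 19 tested other members rose, with median log2 fold changes of 0.87, 0.31 and 0.59. Of all genes tested, 2.4% were called higher. The difference between the classes was not tested, and 2 of the 5 positive rises, Hamp and C4bp, passed the filter only through knockout. A wider class that adds Serpina1a, Serpina1b, Serpina1c, Serpina3k, Plg, Kng1, Vtn and Ambp had a ratio of 1.83, against 1.24 for the remaining 20 members.

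**Figure D3:**
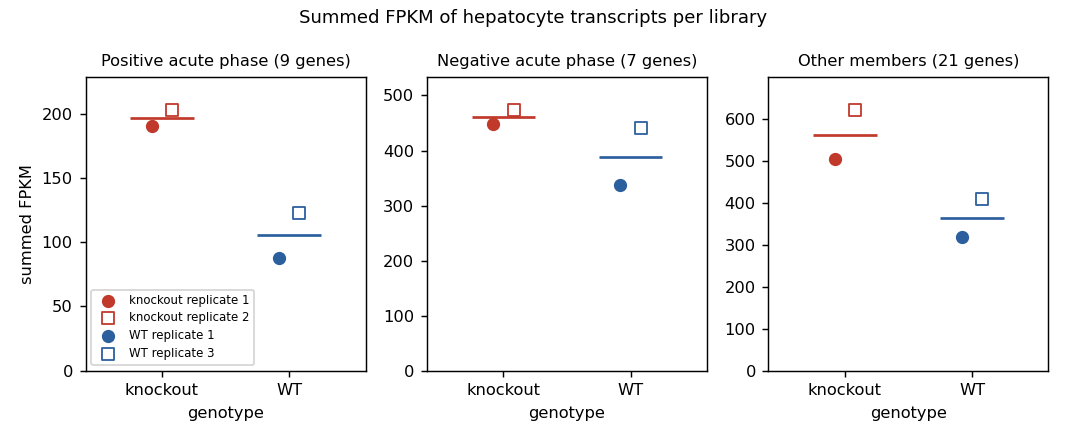
Summed FPKM per library of the positive acute phase, negative acute phase and other members, with the axis from 0; symbols are single libraries and lines group means. The positive class reads 190 and 203 in knockout against 87.6 and 123 in WT, and the negative class 449 and 474 against 337 and 441.

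Within a library, ratios to Alb remove a common factor. Fgg was at 0.514 and 0.413 of the Alb level in knockout and at 0.25 and 0.25 in WT, and F2 at 0.213 and 0.199 against 0.107 and 0.104. Fabp1 was at 0.534 and 0.543 of Alb in knockout and 1.05 and 0.809 in WT. Ttr was at 0.242 and 0.236 against 0.262 and 0.228, with overlap. These ratios did not overlap between genotypes for Fgg, F2 and Fabp1, which are examples among the 37 members. Others also stood apart, in both directions, and more of them were higher than lower in knockout. Fgb was higher, at 0.997 and 1.04 in knockout against 0.704 and 0.637 in WT. So were Apoa1, Apoa5, Hp, Rbp4, Gc, Ahsg, Fga and Kng1. Serpinc1, Plg, Vtn, Serpina3k, Ambp, Itih4, Hamp and C4bp were higher too. Trf was lower, at 2.81 and 2.64 against 3.63 and 3.01, as were Serpina1a (0.111 and 0.106 against 0.13 and 0.118) and Serpina1b (0.214 and 0.249 against 0.29 and 0.29). The ratios were not tested. Across the members, log2(FPKM + 1) had a Pearson r of 0.986 between the knockout libraries, 0.986 between the WT libraries and 0.951 to 0.965 between genotypes, as a description over 37 genes.

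Other hepatocyte genes were read from lists of non-members. Among 58 other plasma proteins in the table, 33 were tested. Where 2.4% of all genes tested were called higher, 1 of these 33 rose (Serpina3m, 1.08, limma adjusted p = 0.0435), 0 fell and 32 did not pass. Their median log2 fold change was 0.54, and 27 of 33 were above 0. The 4 most abundant, Serpina1d (0.82), Serpina1e (0.30), Mup20 (0.60) and Apof (0.67), did not pass. Saa1 and Saa2, the serum amyloid A genes that rise most in an acute phase, were under 1 FPKM in every library. Saa1 was at 0.381 and 0.642 FPKM in knockout and 0.89 and 0.496 in WT, and Saa2 at 0.0883 and 0.123 against 0.185 and 0.156. Other acute phase genes outside the members did not pass. Crp, Apcs and Lrg1 had 0.54, 0.64 and 0.54. Orm1 had -0.48 (SE 0.53), but its knockout libraries lay on both sides of WT, at 0.717 and 7.18 FPKM against 3.78 and 4.74. Orm2 and Serpina3n were below the filter and overlapped between genotypes.
Enzymes and transporters of hepatocytes had no common direction. Of 49 in the table, 22 were tested, with a median log2 fold change of -0.03. Of these 2 rose, 3 fell and 17 did not pass, where 2.4% of all genes tested were called higher and 0.939% lower. Ugt2b5 (a glucuronosyltransferase, 1.02) and Mt1 (a metallothionein, 1.12) rose, whereas Fbp1 (a gluconeogenic enzyme, -1.25), Adh1 (alcohol dehydrogenase, -0.95) and Cdo1 (cysteine dioxygenase, -1.25) fell. Adh1 measured 5.34 and 6.43 FPKM in knockout and 9.74 and 15.4 in WT. Fbp1 and Cdo1 passed the filter only through WT and Mt1 only through knockout. Serpina3m lost its call without knockout replicate 1 (1.11), knockout replicate 2 (1.04) or WT replicate 1 (0.77), Adh1 without either knockout replicate (-0.83 and -1.06) or WT replicate 3 (-0.65), Fbp1 without knockout replicate 1 (-0.88) or WT replicate 3 (-1.10), Cdo1 without knockout replicate 2 (-1.19) and Mt1 without knockout replicate 2 (0.93) or WT replicate 1 (1.02). The most abundant of this list, Oat (0.02), Asl (-0.11), Gstm1 (0.34) and Glul (0.06), did not pass. Of 12 hepatocyte transcription factors in the table, Cebpb, which other cell types also express, was tested and did not pass (0.32). The other 11 summed to 0.245, 0.87, 0.583 and 0.748 FPKM, and Hnf4a was at 0 in both knockout libraries and at 0.0756 and 0.0655 FPKM in WT. The check of the hepatocyte label therefore rests on secreted proteins and enzymes, not on these factors.

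**Figure D4:**
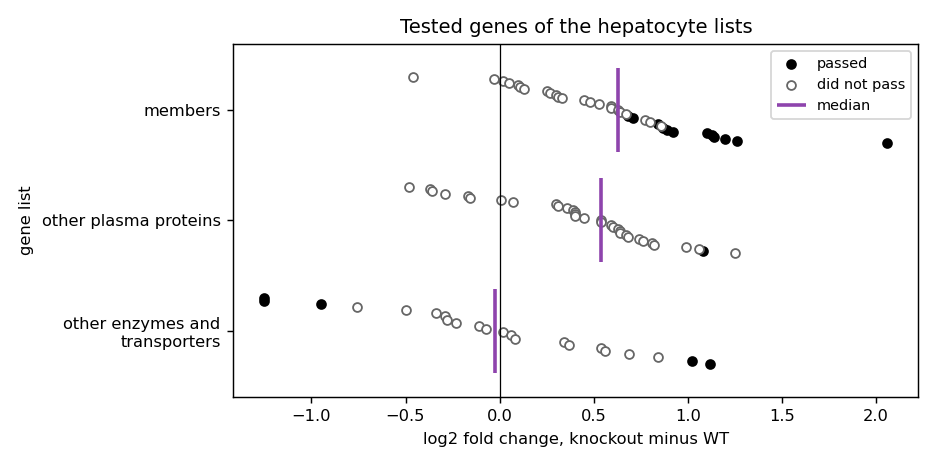
Log2 fold change (knockout minus WT) of the tested genes among the 37 members, the other plasma proteins and the other enzymes and transporters; each symbol is a gene, black symbols passed the adjusted p threshold and purple lines are medians. The medians are 0.63, 0.54 and -0.03.

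Markers of other cells moved in the same libraries. The libraries were of like inferred depth, about 39000000 to 41200000 reads, from 11 to 15 low values per library. At that depth these values came out whole within 0.05 reads for 100% in both knockout libraries, 90.9% in WT replicate 1 and 80% in WT replicate 3, the least certain. ILC1 genes summed to 19770 and 20631 FPKM in knockout and 24632 and 24663 in WT over 19 genes such as Gzma, Gzmb, Xcl1 and Ncr1. Of these 18 were tested and 3 fell, 0 rose and 15 did not pass, where 0.939% of all genes tested were called lower. The 3 were Gzmb, Gzmc and Cd200r1, and Cd200r1 is the gene of the receptor named in the knockout label. Gzma, which weighs most on the sum, did not pass (-0.29, and 0.00 with quantile normalization). The 20 Kupffer cell and macrophage markers summed to 677 and 1012 FPKM in knockout and 253 and 234 in WT. Among 15 tested, 9 rose and 0 fell, where 2.4% of all genes tested were called higher. Lyz2, C1qb, Cd68 and C1qc (1.65 to 2.76) were among the 9. Of the markers of resident Kupffer cells, Clec4f (0.98), Vsig4 (0.85) and Cd5l (-0.04) did not pass. Without knockout replicate 1, Clec4f and Vsig4 had 1.73 and 1.55. Marco and Timd4 were below the filter and differed in direction. Marco was at 0.328 and 0.158 FPKM in knockout against 0.554 and 0.36 in WT, and Timd4 at 0.234 and 1.93 against 0 and 0.101. The 10 erythroid markers were lower in knockout, at 12517 and 14073 against 24807 and 26917 FPKM. Among 9 tested, 8 fell, including Hba-a1, Hbb-bs, Hba-a2 and Hbb-bt, where 0.939% of all genes tested were called lower. Conventional NK markers summed to 400 and 774 against 185 and 188 FPKM. Of 13 tested, 10 rose and 0 fell, where 2.4% of all genes tested were called higher. Eomes and Cx3cr1, among the 10, passed the filter only through knockout. Neutrophil markers summed to 28.3 and 49.3 against 18.9 and 8.76 FPKM. Of 4 tested, 2 (Camp and Ngp) rose and 0 fell, and both passed the filter only through knockout. Cholangiocyte markers overlapped, at 33 and 81.7 against 33.6 and 37; of 3 tested Spp1 rose (3.15), which other cell types also express, and Epcam (-0.59) and Muc1 (-0.11) did not pass. Endothelial markers summed to 27.7 and 24.3 FPKM in knockout against 22 and 20.8 in WT. Most of that was Pecam1, which was lower in knockout (17.5 and 13.3 against 20.7 and 18.6) and did not pass (-0.34). Of 2 tested, Fcgr2b rose (2.09, with 4.07 and 7.15 against 0.375 and 0.657), where 2.4% of all genes tested were called higher. It passed the filter only through knockout. Of 13 in the table, 11 below the filter, 7 lay above WT in both knockout libraries and 1 lay below. Over all genes tested these shares were 24.3% and 21.7%. T cell markers summed to 2131 and 2166 against 2378 and 2352, most of it Cd3g (1983 and 1950 against 2249 and 2238). Of 7 T cell genes tested, 4 had a log2 fold change above 0 and 3 below, and 0 passed. Stellate (1.9 to 3.6) and B cell (46 to 73.3) sums overlapped between genotypes. The part of any of these in the hepatocyte result was not tested.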

How the data were processed

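RNA-seq values of 4 libraries were used. Per the labels' protocols, RNA was extracted with TRIzol, amplified with a full-length single-cell mRNA kit and made into libraries with a transposase-based kit, which does not mark strand. The submitters' processing notes name fastp, HISAT2, HTSeq, DESeq2, R 3.2.0 and the build mm10, with no role or order. The authors deposited FPKM (fragments scaled by gene length and library total) for 18804 genes; no scaling between libraries is stated, and reads of paralogs or of overlapping genes may be split between them.

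Values were analysed as log2(FPKM + 1) with limma 3.58.1 in R 4.3.3, two-sided, with a mean-variance trend and no covariate, over the 9476 genes whose mean reached 1 FPKM. Benjamini-Hochberg adjustment ran over all of these, and the threshold was 0.05. The fit was run on data simulated from its own mean-variance trend. It recovered 77.6% of 2-fold and 99.7% of 4-fold changes, with 4.35% false calls. Such data cannot check the trend itself. The table gives no read counts. Depth was inferred as the number of reads that makes low values whole, using the 11 to 15 values per library that were low enough among 65 genes with 1 exon, and reads per gene are approximate, from exon lengths of GENCODE release M21. Intervals for counting error are not given, since amplified reads are not independent molecules.

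The members and gene lists were chosen with earlier results of these data known. Named genes are all 37 members and the 4 most abundant genes of the hepatocyte, macrophage, erythroid and ILC1 lists; genes named outside this rule were chosen after their values were seen. The stellate and B cell lists are given by their sums. The neutrophil, endothelial, cholangiocyte, conventional NK and T cell lists are given by sums and calls. Alternatives changed the pseudocount, filter, trend and scaling, or left out 1 library.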

Additional observations from a re-analysis of the deposited data

How the results depend on the processing

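No paired analysis was possible because the groups share only replicate number 1. The 12 member calls became 0 with no filter and 0 with no mean-variance trend, 7 without knockout replicate 2 and 16 without knockout replicate 1 (range 7 to 16 over the libraries left out), and 11 or 12 under the other settings. The count over all genes, 316, became 0 with no filter and 70 with no trend, with 1898 and 1304 genes at an unadjusted p under 0.05, and ranged from 217 to 553 over the libraries left out. The cause was not tested. The ratio of member sums ranged from 1.25 to 1.64, that of positive acute phase members from 1.6 to 2.24 and that of the others from 1.2 to 1.56 over the libraries left out. The share of positive members, 3.93 percentage points higher in knockout (3.43 to 4.43), was 6.29 higher without the Serpina1 copies, Serpina3k and Mup3 and 9.08 higher with the wider class, by construction of those sets. Added after seeing the data, the share of negative members, -7.45 percentage points (-8.85 to -6.06 over the libraries left out), was -3.42 without Trf.

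Signs turned for genes near 0 that did not pass: Trf (-0.04 with quantile normalization, -0.01 rescaled without haemoglobin and mitochondrial genes, -0.13 to 0.17 over the libraries left out) and Oat (-0.01, 0.00 and -0.13 to 0.18 in the same settings). Over the libraries left out, Ass1 ranged from 0.00 to 0.66, Asl from -0.23 to 0.02, Serpina1a from -0.10 to 0.29, Serpina1b from -0.30 to 0.25, Serpina1c from -0.22 to 0.47, Cyp2e1 from -0.09 to 0.30 and Glul from -0.05 to 0.17. At about 39000000 to 41200000 reads per library, values under 1 FPKM rest on few reads in short genes such as Hamp.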
